A study of Mus musculus with 10 samples.

Results

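The comparison described here sets the ileum of TetON-Sox2 mice given doxycycline (DOX) against the ileum of TetON-Sox2 mice left untreated. Its members are the 4 arrays of this genotype, out of 10 arrays in the series, and they were chosen by the genotype and treatment in the labels. A TetON transgene is switched on by rtTA, a regulator that needs DOX to act. Sox2 +DOX (2 arrays) received DOX and Sox2 -DOX (2 arrays) did not. For a comparison on other arrays, mice with both the Sox2 and the Oct4 transgene and DOX (Sox2xOct4 +DOX, 2 arrays) were set against mice with rtTA and DOX (rtTA +DOX, 2 arrays). All were C57BL/6 mice of 6 to 8 weeks, and DOX was given for 2 days at 2 mg/ml in drinking water with 1% sucrose. The fit described below also holds 2 arrays of TetON-Oct4 mice (Oct4 +DOX), of the same age and given DOX in the same way. Those arrays take part in the choice of probes and in the error estimate. No sucrose is recorded for the untreated mice, so Sox2 induction, DOX and sucrose cannot be told apart between the TetON-Sox2 groups. The sources used here give no promoter for rtTA and do not say whether replicates were separate animals, so p-values cover only the spread among these samples, which may be technical.

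Sox2 is a DNA-binding factor of the SOX family, which recognises short sequences with the core ACAAAG or ACAATG. In the embryo it marks the foregut, the source of the oesophagus and stomach, whereas Cdx2 marks the hindgut side that becomes intestine. The ileum is the last part of the small intestine. Its surface is made mainly of enterocytes, which carry digestive enzymes and transporters on their brush border, with goblet, Paneth, endocrine and tuft cells between them and lymphocytes within the epithelium. The series addresses what forced Sox2 expression does to the adult intestine.

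Sox21, a SOX family relative of Sox2, and the gastric lipase gene Lipf were among the genes with the largest rises. Their promoters are shown with those of Fetub and Slc37a2, also among the stable rises, so that the SOX core can be looked for in them. They were picked from 10 risen genes with a promoter in the table after their matches were known. The sequences are the 250 bases before the gene start, from RefSeq on build GRCm38.p6, written 5′ to 3′ on the strand of the gene, and capitals mark ACAAAG or ACAATG or their reverse complements. Sox21 lies on the minus strand (chr14:118237031-118237280), Lipf on the plus strand (chr19:33960998-33961247), Fetub on the plus strand (chr16:22918132-22918381) and Slc37a2 on the minus strand (chr9:37255739-37255988).
Sox21: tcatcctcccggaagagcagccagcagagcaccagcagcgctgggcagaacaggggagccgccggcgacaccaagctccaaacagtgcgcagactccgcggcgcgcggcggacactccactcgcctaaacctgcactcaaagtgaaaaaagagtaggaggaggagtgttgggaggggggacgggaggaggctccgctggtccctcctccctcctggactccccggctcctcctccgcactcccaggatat
Lipf: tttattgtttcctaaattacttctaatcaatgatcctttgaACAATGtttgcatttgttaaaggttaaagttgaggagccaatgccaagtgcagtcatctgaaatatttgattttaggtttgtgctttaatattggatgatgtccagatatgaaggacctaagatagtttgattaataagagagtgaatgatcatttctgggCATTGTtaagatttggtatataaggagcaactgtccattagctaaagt
Fetub: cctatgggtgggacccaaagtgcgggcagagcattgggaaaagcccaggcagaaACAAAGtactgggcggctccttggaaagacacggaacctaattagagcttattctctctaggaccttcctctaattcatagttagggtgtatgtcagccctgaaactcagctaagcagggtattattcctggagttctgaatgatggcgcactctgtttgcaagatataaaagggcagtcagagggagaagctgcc
Slc37a2: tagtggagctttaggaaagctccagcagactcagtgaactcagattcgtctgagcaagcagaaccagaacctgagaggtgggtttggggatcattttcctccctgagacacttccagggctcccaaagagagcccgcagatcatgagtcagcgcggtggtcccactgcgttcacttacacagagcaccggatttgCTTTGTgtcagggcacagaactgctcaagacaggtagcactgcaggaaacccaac
Lipf held 2 matches, which began 209 and 48 bases before the start. Fetub held 1 match, 196 bases before the start, and Slc37a2 held 1, 55 bases before it. These letters are not in the window of Sox21. Of the 10 promoters, 4 held a match (also S100g) and 6 did not (Sox21, Adh7, Umod, Prss12, Cyp26b1 and Reg1). Of all 27025 promoters in the table, 25.5% held at least 1 match within 250 bases on either strand. Promoters were matched for 54 of the 70 genes that rose in every fit named below and 41 of the 56 that fell, under 80% of each, so a comparison of these sets with other promoters is void and none is made.

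Levels are given as the log2 of the processed spot signal minus the 75th percentile of the array, and a difference of 1 is a 2-fold change. A gene is called (it rose or fell) at a limma adjusted p under 0.05 in a fit of all 10 arrays. Of 18979 genes tested, 1482 (7.81%) were called between Sox2 +DOX and Sox2 -DOX, of which 575 (3.03%) rose and 907 (4.78%) fell. The counts of gene lists given below are to be read against these shares. Over 4-fold, 264 rose and 496 fell. With normexp background correction and quantile normalization, 50.3% of the calls were higher, against 38.8% here. Single arrays are written below as +DOX 1, +DOX 2, -DOX 1 and -DOX 2 by group and replicate. The count changed strongly when 1 of them was left out. It was 161 without -DOX 1, 282 without -DOX 2 and 212 without +DOX 1, against 1717 without +DOX 2, and 623 in a fit of the 4 TetON-Sox2 arrays alone. The genes called in each of these fits number 126 (0.664% of all tested), of which 70 rose and 56 fell, and they are called stable below. The groups did not overlap for 66.5% of all genes.

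The 4 TetON-Sox2 arrays lay on 1 slide. Between 64.9 and 66.1% of probes were well above background on each, and none was saturated. Replicates correlated at r = 0.973 in Sox2 +DOX and r = 0.984 in Sox2 -DOX, and 12.2% and 5.45% of probes differed by over 2-fold between the arrays of these groups. All 7 markers of ileal enterocytes were well above background on the 4 arrays. Of 4 markers of the upper small intestine, Pdx1 was not well above background on any array. Lct and Onecut2 were on all 4 arrays and Gata4 on 3, so these markers alone do not settle the region. The RNA came from whole pieces of ileum, so fewer cells of a type and less RNA per cell cannot be told apart. The log2 of the summed signal of the 5 T cell markers was -0.09 and 0.83 in Sox2 +DOX, against 2.72 and 2.30 in Sox2 -DOX. Over 5 smooth muscle markers it was 5.01 and 4.63 in Sox2 +DOX, against 6.44 and 5.94 in Sox2 -DOX, and over 5 adipocyte markers 1.49 and 2.50 in Sox2 +DOX, against 4.19 and 4.54 in Sox2 -DOX. Over the 6 Paneth cell markers it was 8.34 and 8.21 in Sox2 +DOX, against 8.29 and 8.52 in Sox2 -DOX. These sums were not tested. Taken singly, 1 of the T cell markers was called lower by limma in the fit described above. None of the smooth muscle, adipocyte or Paneth cell markers was called.

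The induced gene itself was not seen. The probe of Sox2 (chr3:34459231-34459290 on build mm7, as the files give it) stood at -8.28 and -8.18 in Sox2 +DOX, against -8.0 and -7.83 in Sox2 -DOX. On all 10 arrays of the series it failed to stand well above background. No source used here says whether the transgene contains this probe's sequence, and so the labels could not be checked with it.

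Sox21, which acts in the developing foregut and nervous system, rose most within its family. Its brightest probe stood at 3.33 and 1.40 in Sox2 +DOX, against -3.75 and -3.84 in Sox2 -DOX, a 71.4-fold rise (log2 change 6.16 ± 0.66, SE, adjusted p = 0.0026). A second probe of the gene (chr14:112637308-112637367, mm7) stood at -0.06 and -1.93 in Sox2 +DOX, against -6.14 and -5.51 in Sox2 -DOX, and was also called in a fit of all probes. The third (chr14:112637960-112638019) stood at -1.82 and -2.56 in Sox2 +DOX, against -2.74 and -3.02 in Sox2 -DOX, and did not pass (log2 change 0.69, adjusted p = 0.31). The 3 probes therefore did not report equal changes for this gene. Of the 16 SOX family genes measured, 3 rose and 1 fell, and Sox21 was the only stable one of these 4. Sox4, a factor of progenitor cells, stood at -1.07 and -0.78 in Sox2 +DOX, against -1.99 and -2.09 in Sox2 -DOX, a 2.16-fold rise whose call was lost without any one of the 4 arrays (log2 changes of 0.97 to 1.26). Sox6 fell 4.31-fold, with levels of -0.56 and -0.60 in Sox2 +DOX and 1.76 and 1.29 in Sox2 -DOX, and was not called without +DOX 1 (-2.13), -DOX 1 (-1.87) or -DOX 2 (-2.35).

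Cdx2 stood at 4.37 and 5.83 in Sox2 +DOX, against 6.27 and 5.88 in Sox2 -DOX. Both Sox2 +DOX arrays lay below both Sox2 -DOX arrays, but the gap between replicate 2 and the lower control was small and the change was not called (-0.98 ± 0.49, adjusted p = 0.24). Of 24 factors of intestinal identity measured, 2 rose and 7 fell, with a median log2 change of -0.98 against -0.10 over all genes. The fallen ones included Klf4, a factor of epithelial differentiation, with 3.31 and 4.46 in Sox2 +DOX against 6.65 and 6.25 in Sox2 -DOX (5.91-fold lower), and Maf, a factor of enterocyte maturation, with 0.75 and 3.32 in Sox2 +DOX against 5.64 and 5.31 in Sox2 -DOX (10.8-fold lower). None of these 9 calls was stable. Without +DOX 1 the log2 changes of Klf4 and Maf were -1.98 and -2.15 and were not called. Nor were they called without -DOX 1 (-2.36 and -3.27) or -DOX 2 (-2.76 and -3.60). Of 22 Hox genes measured, which record position along the body, limma called 0, and 3 were lower and 0 higher at an unadjusted p under 0.05.

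**Figure D1:**
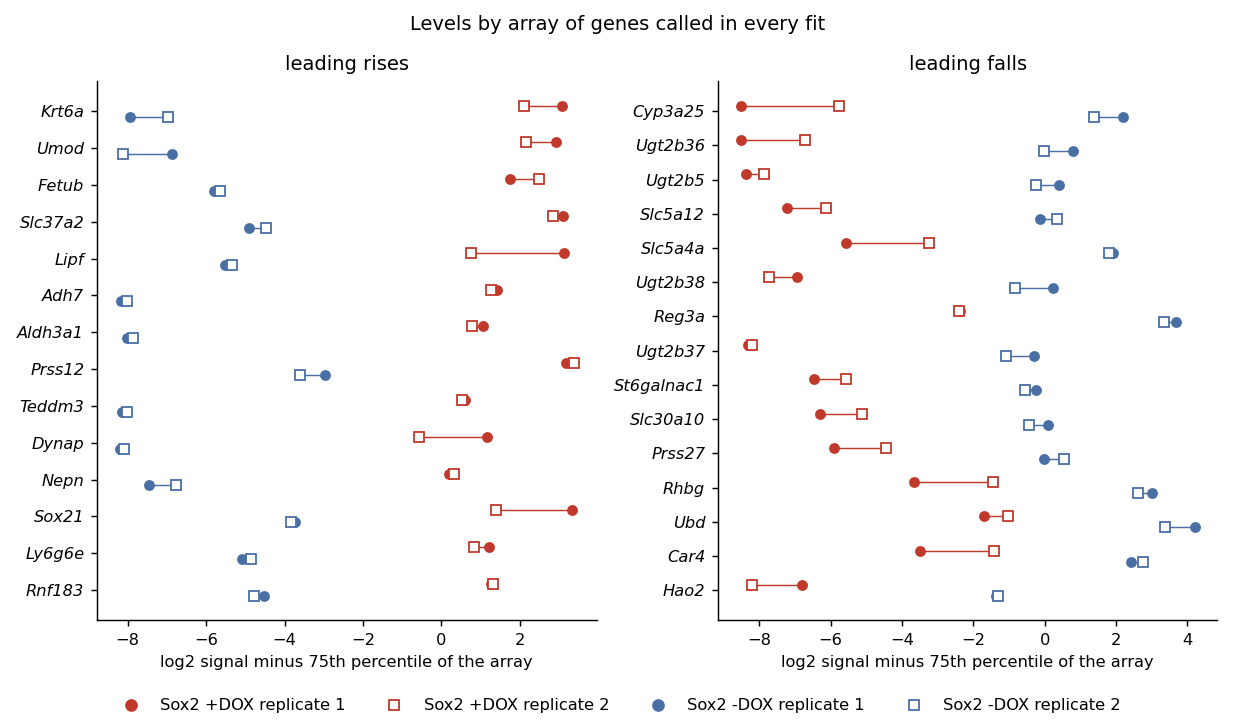
Levels on the 4 TetON-Sox2 arrays of 14 of the 15 stable genes with the largest rises (left) and the 15 with the largest falls (right), as log2 signal minus the 75th percentile of the array. Red points are Sox2 +DOX and blue points Sox2 -DOX, circles replicate 1 and squares replicate 2. For each gene shown both arrays of a group lie on the same side of both arrays of the other. The genes were chosen by these same values, and the groups did not overlap for 66.5% of all genes. Levels around -6 and below are near background.

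Of the stable genes with the largest rises, several were not well above background in Sox2 -DOX. If neither array of a group measured a gene well above background, its fold is a lower bound, set against the dimmest signal that passed. Krt6a, a keratin of stratified epithelia, stood at 3.07 and 2.10 in Sox2 +DOX, against -7.94 and -6.97 in Sox2 -DOX, a rise of at least 373-fold (adjusted p = 0.0018). Uromodulin, a protein of the kidney tubule, is the product of Umod, which stood at 2.92 and 2.16 in Sox2 +DOX, against -6.86 and -8.12 in Sox2 -DOX (at least 360-fold higher). Fetub, which encodes the secreted protease inhibitor fetuin B, stood at 1.74 and 2.48 in Sox2 +DOX, against -5.79 and -5.64 in Sox2 -DOX (at least 227-fold higher, adjusted p = 0.0021). For these genes the lower Sox2 +DOX array stood more than 7 log2 units above the higher Sox2 -DOX array. Slc37a2, a sugar phosphate exchanger, was measured above background in both groups, at 3.09 and 2.84 in Sox2 +DOX against -4.91 and -4.48 in Sox2 -DOX (201-fold, log2 change 7.65 ± 0.56, adjusted p = 5.7e-04). Prss12, the secreted protease neurotrypsin, stood at 3.18 and 3.38 in Sox2 +DOX, against -2.98 and -3.59 in Sox2 -DOX (94.6-fold, 6.56 ± 0.33, adjusted p = 2.3e-04). Nepn, which encodes nephrocan, a secreted leucine-rich repeat protein, was at least 74.2-fold higher. The other genes of this group were Teddm3 (at least 91.8-fold), Dynap (at least 75.8-fold), Ly6g6e of the Ly6 family of surface proteins (63.8-fold) and the ubiquitin ligase gene Rnf183 (61.5-fold).

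Some of the stable genes that rose handle vitamin A or are related to such genes. Retinol is oxidised by alcohol and aldehyde dehydrogenases to retinoic acid, and retinoic acid is degraded by enzymes of the Cyp26 family. Adh7, an alcohol dehydrogenase of the stomach and oesophagus that accepts retinol, stood at 1.41 and 1.26 in Sox2 +DOX, against -8.16 and -8.03 in Sox2 -DOX (at least 156-fold). Dhrs9, a retinol dehydrogenase, stood at -0.51 and -0.79 in Sox2 +DOX, against -5.22 and -4.96 in Sox2 -DOX (21.7-fold). Cyp26b1, which degrades retinoic acid, stood at 2.79 and 2.35 in Sox2 +DOX, against -3.41 and -2.35 in Sox2 -DOX (43.6-fold). Aldh3a1, an aldehyde dehydrogenase abundant in cornea and stomach, stood at 1.05 and 0.78 in Sox2 +DOX, against -8.01 and -7.86 in Sox2 -DOX (at least 117-fold, adjusted p = 3.0e-04). The risen genes thus included oxidising enzymes and an enzyme that removes retinoic acid. Of 46 genes of alcohol, aldehyde and retinoid metabolism measured, 6 rose and 5 fell by limma (median log2 change 0.15). At an unadjusted p under 0.05, 10 were higher and 14 lower, so the list as a whole did not move 1 way. The 4 risen genes just given were stable. Rdh16, another retinol dehydrogenase, fell, with -4.78 and -5.33 in Sox2 +DOX against -0.33 and -0.59 in Sox2 -DOX (24.2-fold lower), a call lost without -DOX 1 (-4.47).

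Genes of stratified and gastric epithelium rose in part. Of 33 keratins measured, 7 rose and 4 fell (median log2 change 0.26). The falls, none of them stable, were Krt35 (at least 10.9-fold), Krt84 (10.5-fold), Krt12 (7.33-fold) and Krt27 (at least 2.88-fold). Besides Krt6a the keratin Krt75 was stable, at -3.37 and -3.21 in Sox2 +DOX against -6.73 and -7.03 in Sox2 -DOX (at least 6.36-fold higher). Krt79 stood at -0.69 and 0.19 in Sox2 +DOX, against -3.67 and -4.10 in Sox2 -DOX (12.5-fold), but was not called without +DOX 1 (4.08), -DOX 1 (3.86) or -DOX 2 (3.42). Of 32 squamous differentiation genes other than keratins, 6 rose, 0 fell by limma (2 were lower at an unadjusted p under 0.05) and 1 rise was stable. This was Gsta4, a glutathione transferase for products of lipid oxidation, with 3.72 and 4.10 in Sox2 +DOX against -1.29 and -1.43 in Sox2 -DOX (38.6-fold, 5.27 ± 0.54, adjusted p = 0.0021). Grhl1, a factor of epidermal differentiation, stood at 1.15 and -0.87 in Sox2 +DOX, against -2.85 and -2.92 in Sox2 -DOX (8.18-fold), and its call was lost without +DOX 1 (2.02) and without either Sox2 -DOX array (3.07 and 2.99). Trp63, the defining factor of basal squamous cells, did not stand well above background on the 4 arrays. Of the 5 squamous markers that include it, 1 rose and 0 fell. This was Krt4, at -1.89 and 0.08 in Sox2 +DOX against -8.10 and -7.95 in Sox2 -DOX (at least 33.2-fold higher, not stable). The log2 summed signal of the 5 was 1.35 and 2.32 in Sox2 +DOX, against 0.68 and 0.67 in Sox2 -DOX, and Krt13 was the brightest of them.

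Of 20 stomach and foregut genes measured, 3 rose and 1 fell (20% called, against 7.81% of all genes). Lipf stood at 3.12 and 0.76 in Sox2 +DOX, against -5.52 and -5.34 in Sox2 -DOX (165-fold, 7.37 ± 0.71, adjusted p = 0.0019), and was the only stable one. Gkn1 and Gkn2, the gastrokines of stomach surface cells, did not stand well above background on the 4 arrays. Summed over 8 stomach markers, of which 7 were on the array, the log2 signal was -3.07 and -2.54 in Sox2 +DOX, against -2.99 and -3.01 in Sox2 -DOX. The groups overlapped in this sum. Only 2 of the 7, Muc5ac and Tff1, were well above background on all 4 arrays, so the sum cannot decide whether the stomach markers rose together. Tff2, also among the 7, stood at -5.91 and -5.20 in Sox2 +DOX, against -8.03 and -7.88 in Sox2 -DOX. It was called higher (at least 1.32-fold), but not stably.

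Detoxifying enzymes moved in both directions. Of 19 UDP-glucuronosyl and sulfotransferases measured, which attach sugar or sulfate groups to lipids, hormones and drugs, 8 fell and 0 rose by limma (11 and 0 at an unadjusted p under 0.05), with a median log2 change of -1.84. Of the 8, 5 were stable, all of the Ugt2b family. Ugt2b5 stood at -8.37 and -7.87 in Sox2 +DOX, against 0.40 and -0.25 in Sox2 -DOX (at least 85.8-fold lower, adjusted p = 5.7e-04). Ugt2b37 stood at -8.31 and -8.21 in Sox2 +DOX, against -0.30 and -1.08 in Sox2 -DOX (at least 50.6-fold lower). Ugt2b36 was lower by at least 107-fold and Ugt2b38 by at least 66.1-fold. In Sox2 +DOX the signals of these 4 genes were at background on both arrays. The Ugt2b genes form a multigene family. The probes of these 4 genes matched each other at no more than 23 of 51 aligned bases and shared runs of at most 11 bases. Whether a probe also matches the transcript of another member was not tested. The probes of Ugt2b36 (chr5:87177762-87179054, mm7) and Ugt2b37 (chr5:87177445-87177504) lie close together at the same locus, so these members cannot be told apart.

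Of 56 cytochrome P450 genes measured, 5 rose and 5 fell (17.9% called, against 7.81% of all genes), and the stable ones were Cyp26b1 and Cyp3a25. Cyp3a25 stood at -8.52 and -5.76 in Sox2 +DOX, where replicate 2 alone was above background, against 2.20 and 1.39 in Sox2 -DOX (log2 change -8.93 ± 1.04, adjusted p = 0.0039). Because the fit uses the background value of +DOX 1, the fold is uncertain, and with signals floored at the lowest one well above background the log2 change was -7.84. Cyp2a4 and Cyp2a5 rose as a pair, but their probes lie beside each other at 1 locus (chr7:23212159-23212218 and chr7:23212221-23212279, mm7), so the members cannot be told apart. The Cyp2a5 probe stood at 3.56 and 1.85 in Sox2 +DOX, against -2.73 and -7.51 in Sox2 -DOX, where only replicate 1 was above background. Its log2 change of 7.82 uses the background value of -DOX 2 and was 7.04 with the same floor. The rise was not called without +DOX 1 (6.97) or in the fit of the 4 arrays (7.82). Of 34 antioxidant genes known as targets of Nrf2, 7 rose and 1 fell, with a median log2 change of 0.51. Gsta4 was again the stable one, and Gsta3, a related transferase, stood at 2.94 and 2.50 in Sox2 +DOX against 0.38 and 0.70 in Sox2 -DOX (4.53-fold). Gsta3 was not called without +DOX 1 (1.96), -DOX 1 (2.02) or -DOX 2 (2.34). Srxn1, the sulfiredoxin that restores oxidised peroxiredoxins, was the member that fell (3.27-fold), and its call was lost without +DOX 1 (-1.49), -DOX 1 (-1.54) or -DOX 2 (-1.88).

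**Figure D2:**
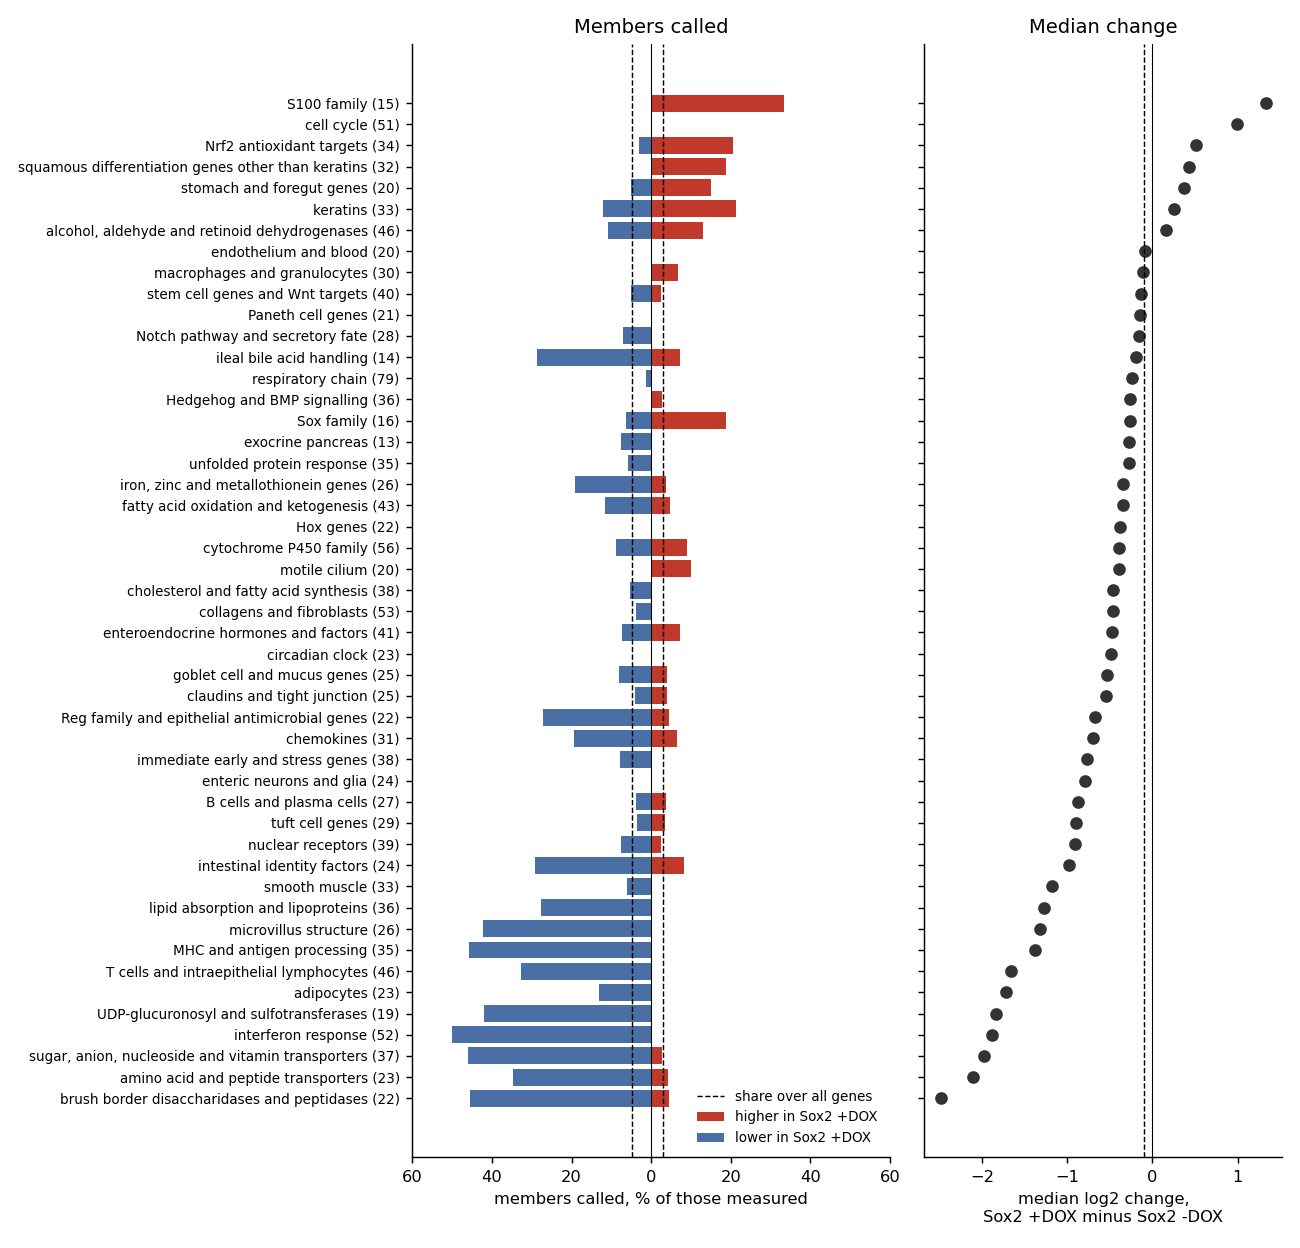
Share of the measured members of each of 48 gene lists that were called higher (red) or lower (blue) in Sox2 +DOX than in Sox2 -DOX (left), and the median log2 change of the list (right), with the number of members measured in brackets. Dashed lines mark 3.03% higher, 4.78% lower and the median of all genes, -0.10. Brush border enzymes, transporters, interferon response and MHC genes lie at the lower end and the S100 family at the upper end.

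Many genes for proteins of the enterocyte surface were lower with DOX. Of 22 brush border disaccharidases and peptidases measured, 10 fell and 1 rose, with a median log2 change of -2.48. Of 37 transporters of sugars, anions, nucleosides and vitamins, 17 fell and 1 rose (median -1.97). Slc5a4a, of the sodium-glucose transporter family, stood at -5.56 and -3.25 in Sox2 +DOX, against 1.92 and 1.79 in Sox2 -DOX (76.9-fold lower, -6.26 ± 0.72, adjusted p = 0.0038). Slc5a9, a sodium-coupled transporter of mannose and other sugars, stood at -3.35 and -2.69 in Sox2 +DOX, against 1.30 and 1.34 in Sox2 -DOX (20.3-fold lower, -4.34 ± 0.32, adjusted p = 5.7e-04). The lactate carrier Slc5a12 stood at -7.22 and -6.14 in Sox2 +DOX, against -0.13 and 0.36 in Sox2 -DOX (at least 81.8-fold lower). These 3 were the stable members of the list, and all belong to the same family of sodium-coupled carriers. Of 23 amino acid and peptide transporters, 8 fell and 1 rose (median -2.11, but -0.71 with normexp and quantile normalization). Slc1a1, a glutamate transporter, stood at 0.27 and 1.17 in Sox2 +DOX, against 3.76 and 3.35 in Sox2 -DOX (7.16-fold lower), and was not called without +DOX 1 (-2.39) or -DOX 1 (-2.64). Of 26 genes of microvillus structure, 11 fell and 0 rose by limma (20 and 0 at an unadjusted p under 0.05, median -1.31). Pdzk1, a scaffold for apical transporters, stood at -1.66 and 1.22 in Sox2 +DOX, against 5.73 and 4.92 in Sox2 -DOX (46.8-fold lower), a call lost without -DOX 1 (-5.14) and in the fit of the 4 arrays (-5.55).

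The number of falls in these 4 lists depended on which array was left out. Such a fit also holds fewer arrays, so the counts below do not show that any 1 array drives the falls. Of the brush border enzymes, 3 fell without +DOX 1, 0 without -DOX 1 and 1 without -DOX 2, but 15 without +DOX 2. Of the sugar and anion transporters, 6, 3 and 7 fell without +DOX 1, -DOX 1 and -DOX 2, and 18 without +DOX 2. For the amino acid transporters these counts were 1, 0, 2 and 11, and for the microvillus genes 1, 0, 1 and 12. The mean level of the brush border enzymes was -0.38 and 1.28 in Sox2 +DOX, against 3.27 and 3.04 in Sox2 -DOX, so replicate 1 lay further from the untreated arrays. The log2 summed signal of the 7 ileal enterocyte markers moved in the same direction. It was 7.33 and 8.25 in Sox2 +DOX, against 9.37 and 9.15 in Sox2 -DOX, and its part in these falls was not tested. Of the 7, limma called 1 lower and 0 higher. The groups overlapped for Fabp6, at 1.03 and 1.66 in Sox2 +DOX against 1.44 and 1.49 in Sox2 -DOX.

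Of 36 lipid uptake and lipoprotein genes, 10 fell and 0 rose by limma (21 and 3 at an unadjusted p under 0.05, median -1.27), and none of the falls was stable. The falls numbered 0 without +DOX 1 or -DOX 1, 1 without -DOX 2 and 13 without +DOX 2. Of 14 genes of ileal bile acid handling, 4 fell and 1 rose. Slc51b, a subunit of the organic solute transporter that passes bile acids to the blood, stood at 2.45 and 3.70 in Sox2 +DOX, against 5.97 and 5.50 in Sox2 -DOX (6.34-fold lower), and was not called without +DOX 1 (-2.04), -DOX 1 (-2.43) or -DOX 2 (-2.90). Of 26 genes of iron, zinc and related metals, 5 fell and 1 rose. The rise was Hamp, the iron hormone hepcidin, with -0.32 and 0.79 in Sox2 +DOX against -3.47 and -4.55 in Sox2 -DOX (18.9-fold), lost only without -DOX 2 (3.70) among the fits that leave out 1 array. Slc30a10, a manganese exporter, stood at -6.29 and -5.12 in Sox2 +DOX, where replicate 2 alone was above background, against 0.10 and -0.44 in Sox2 -DOX (46.5-fold lower, stable).

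Further stable falls came from genes outside these lists or alone within theirs. Reg3a, a secreted antimicrobial lectin, stood at -2.37 and -2.41 in Sox2 +DOX, against 3.67 and 3.35 in Sox2 -DOX (59.9-fold lower, -5.91 ± 0.41, adjusted p = 5.7e-04). Its relative Reg1 went the other way, at 5.37 and 3.71 in Sox2 +DOX against -0.98 and -1.09 in Sox2 -DOX (47.5-fold higher, 5.57 ± 0.55, adjusted p = 0.0019). For both genes the groups lay well apart, although the Sox2 +DOX arrays of Reg1 differed by more than 1 log2 unit. St6galnac1, a sialyltransferase that modifies mucins, stood at -6.47 and -5.58 in Sox2 +DOX, with 1 of the 2 arrays above background, against -0.25 and -0.55 in Sox2 -DOX (49.3-fold lower). It was the only stable change among 25 goblet cell and mucus genes, of which 1 rose and 2 fell (12% called, against 7.81% of all genes). Rhbg, an ammonium transporter, stood at -3.65 and -1.45 in Sox2 +DOX, against 3.0 and 2.62 in Sox2 -DOX (41-fold lower). Car4, a membrane carbonic anhydrase, stood at -3.50 and -1.41 in Sox2 +DOX, against 2.42 and 2.75 in Sox2 -DOX (32.9-fold lower). Prss27, a serine protease, fell 43.0-fold, and Hao2, a peroxisomal oxidase, was at least 32.3-fold lower. Nr2e3, a nuclear receptor, was at least 7.13-fold lower, with -8.0 and -8.18 in Sox2 +DOX against -3.25 and -3.78 in Sox2 -DOX, but was not called with normexp and quantile normalization (-0.73).

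**Figure D3:**
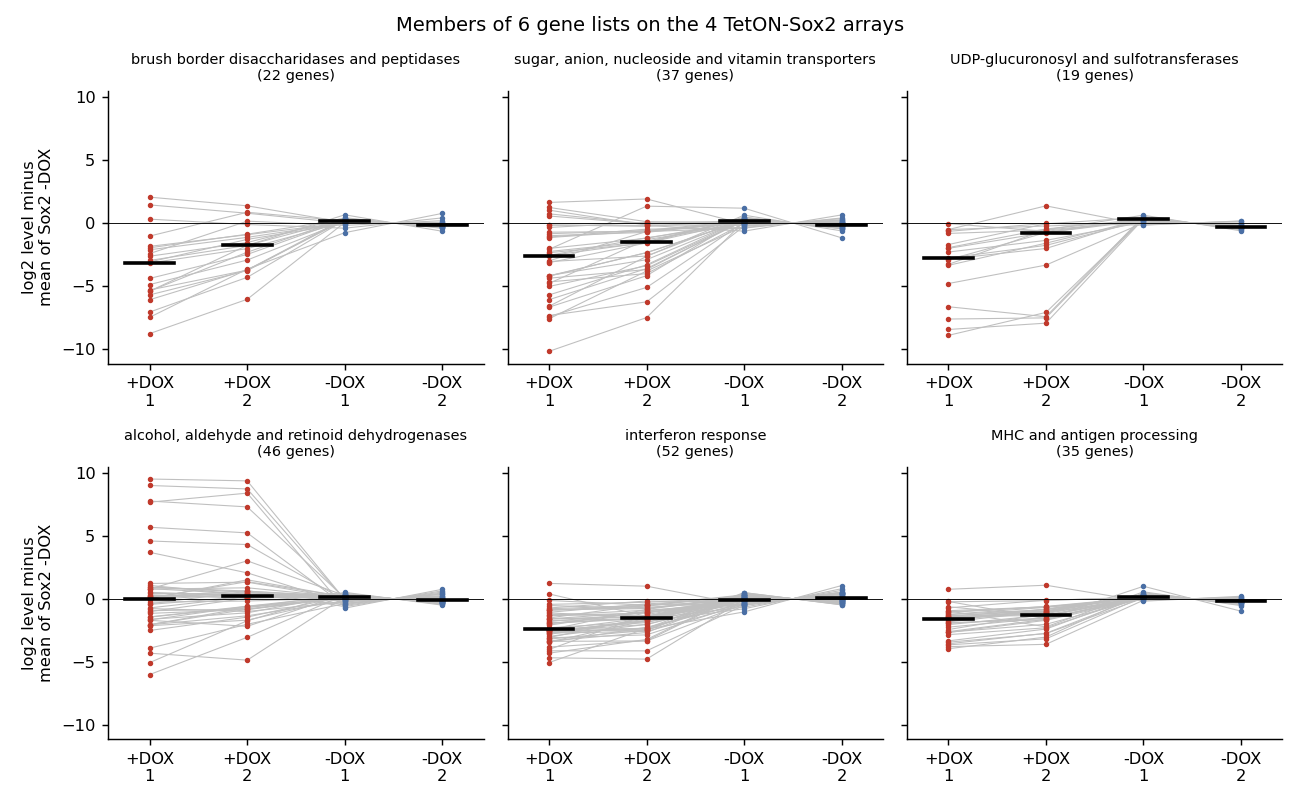
Level of each measured member of 6 gene lists on the 4 TetON-Sox2 arrays, as log2 level minus the mean of the 2 Sox2 -DOX arrays. Each thin line joins the 4 values of 1 gene, and black bars are medians over the members. Members of 5 lists lie mostly below the untreated arrays, further below on +DOX 1, while the dehydrogenases spread to both sides.

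Many antigen presentation and interferon response genes were lower with DOX. Of 35 genes of the major histocompatibility complex (MHC) and antigen processing, 16 fell and 0 rose by limma (31 and 1 at an unadjusted p under 0.05, median -1.37). Ciita, the factor that switches on MHC class II genes, stood at -2.29 and -2.11 in Sox2 +DOX, against 1.39 and 1.63 in Sox2 -DOX (13.1-fold lower, -3.71 ± 0.30, adjusted p = 8.4e-04). H2-DMb1, which helps load peptides onto class II molecules, stood at 1.45 and 1.93 in Sox2 +DOX, against 5.26 and 4.96 in Sox2 -DOX (log2 change -3.42 ± 0.39, adjusted p = 0.0036). Both were stable. H2-Ab1, a class II chain, stood at 3.53 and 4.37 in Sox2 +DOX, against 7.35 and 6.86 in Sox2 -DOX (8.92-fold lower), and was not called without +DOX 1 (-2.74) or -DOX 1 (-2.91). Cd74, the chaperone of class II molecules, stood at 3.69 and 4.36 in Sox2 +DOX, against 7.18 and 7.08 in Sox2 -DOX (8.62-fold lower), and was not called without +DOX 1 (-2.77), -DOX 1 (-3.05) or -DOX 2 (-3.16).

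Of 52 interferon response genes, 26 fell and 0 rose by limma (41 and 0 at an unadjusted p under 0.05, median -1.88), and 51 of the 52 had log2 changes below 0. Cxcl9, a chemokine for T cells, stood at -3.74 and -3.75 in Sox2 +DOX, against -0.12 and 0.91 in Sox2 -DOX (17.6-fold lower). Cmpk2, an interferon-induced nucleotide kinase, stood at -2.67 and -2.16 in Sox2 +DOX, against 1.60 and 0.74 in Sox2 -DOX (log2 change -3.58 ± 0.44, adjusted p = 0.0050). Ubd, a ubiquitin-like modifier induced by inflammatory cytokines, stood at -1.70 and -1.02 in Sox2 +DOX, against 4.21 and 3.39 in Sox2 -DOX (35.7-fold lower, -5.16 ± 0.63, adjusted p = 0.0049). Cxcl9 and Cmpk2 were the stable interferon response genes, and Ubd, which is not in that list, was stable too. Of 46 genes of T cells and intraepithelial lymphocytes, 15 fell and 0 rose by limma (37 and 0 at an unadjusted p under 0.05, median -1.66, which normexp and quantile normalization moved to -1.01), with none stable, and the T cell marker sum given above was lower on both Sox2 +DOX arrays. Its part in the falls of MHC and interferon genes was not tested. In the fits without +DOX 1, -DOX 1, -DOX 2 and +DOX 2, the falls numbered 2, 4, 3 and 27 for the interferon genes, 2, 2, 4 and 17 for the MHC genes, and 0, 0, 1 and 23 for the T cell genes.

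The S100 family of calcium-binding proteins was the list with the highest median. Of 15 members measured, 5 rose and 0 fell by limma (9 and 1 at an unadjusted p under 0.05), and the median log2 change was 1.33. S100g, the calbindin of intestinal calcium uptake, stood at 5.45 and 5.23 in Sox2 +DOX, against -0.42 and -0.18 in Sox2 -DOX (49.7-fold higher, 5.63 ± 0.69, adjusted p = 0.0048), and was stable. S100a6 was among the brightest genes of the arrays, at 8.02 and 7.95 in Sox2 +DOX against 5.92 and 6.25 in Sox2 -DOX (3.74-fold), but was not called without +DOX 1 (1.87), -DOX 1 (1.73) or -DOX 2 (2.07). Without these 3 arrays in turn, 1 of the 15 rose, and 4 rose without +DOX 2. S100a9, a protein of granulocytes, was among the 5 and rose 7.08-fold, with -0.31 and -1.33 in Sox2 +DOX against -4.20 and -3.08 in Sox2 -DOX, and was not called without +DOX 1 (2.31), -DOX 1 (2.26) or -DOX 2 (3.39). Of 5 markers of macrophages and granulocytes, 2 rose, S100a9 and Cd68 (4.99-fold, not called without +DOX 1, 2.01, or -DOX 1, 1.84). S100a8, which is also in both lists, did not pass (adjusted p = 0.054). The log2 summed signal of the 5 markers was 1.46 and 1.49 in Sox2 +DOX, against 0.43 and 1.37 in Sox2 -DOX, and its part in the S100 rises was not tested. All 51 cell cycle genes measured had log2 changes above 0, with a median of 0.99, yet limma called 0 of them, and 6 were higher and 0 lower at an unadjusted p under 0.05. Their mean level was 2.44 and 1.02 in Sox2 +DOX, against 0.70 and 0.80 in Sox2 -DOX, so most of the difference lay in replicate 1. Of 21 Paneth cell genes, 24 genes of enteric neurons and glia and 23 clock genes, limma called 0 in each list, and 3, 4 and 5 of them passed an unadjusted p under 0.05.

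The Sox2 +DOX arrays differed in the size of their response. Of the 575 genes that rose, 435 were further from the Sox2 -DOX mean on replicate 1 than on replicate 2, with median changes of 2.25 on replicate 1 and 1.93 on replicate 2. Of the 907 that fell, 784 were further on replicate 1, with medians of -2.63 on replicate 1 and -1.90 on replicate 2. The stable genes Adh7, Prss12, Reg3a and Rnf183 differed little between the replicates, whereas Lipf, Sox21 and Slc5a4a differed by about 2 log2 units. Other genes differed strongly between the replicates. Defcr-rs2, a Paneth cell defensin-related gene, was at 7.80 on +DOX 2 and not above background on replicate 1 (-8.38) or in Sox2 -DOX (-8.08 and -5.82). Defcr-rs10 showed the same, with 7.26 on +DOX 2. Ada, adenosine deaminase, stood at -0.04 on +DOX 1 and 5.64 on replicate 2, against 5.64 and 5.25 in Sox2 -DOX. Aqp8, a water channel, stood at 2.63 and -2.62 in Sox2 +DOX, against -5.83 and -5.65 in Sox2 -DOX, and Retnlb, a goblet cell peptide, at 1.22 and -4.62 in Sox2 +DOX, against -4.37 and -2.84 in Sox2 -DOX.

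**Figure D4:**
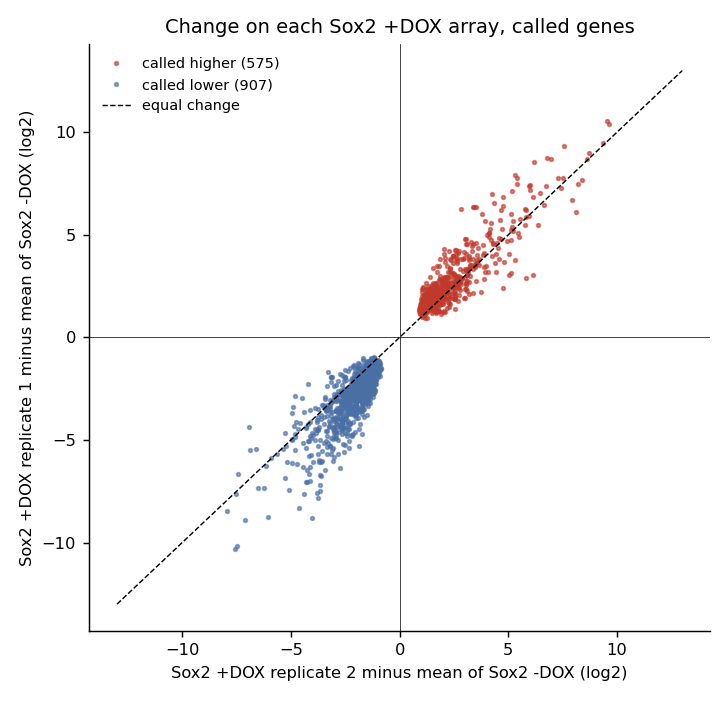
Log2 difference of each called gene from the mean of the 2 Sox2 -DOX arrays, on +DOX 1 (vertical) and replicate 2 (horizontal). Red points are the 575 genes that rose and blue points the 907 that fell, and the dashed line marks equal change. Most points lie further from 0 on the vertical axis.

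Sox2xOct4 +DOX against rtTA +DOX is a comparison on another slide, with DOX in both groups. By the labels these mice carry the Sox2 and the Oct4 transgene. The Sox2 probe was at background there too (-8.88 and -7.83 in Sox2xOct4 +DOX), so the induction of Sox2 was not seen. The part of Oct4 in the changes below was not tested. This comparison shares no array with the TetON-Sox2 comparison, although both were fitted in 1 model and share its error estimate. In this comparison 1200 genes (6.32%) were called, 603 higher (3.18%) and 597 lower (3.15%). Of the 575 genes that rose in Sox2 +DOX, 213 rose here too, which is 37.0% of the 575 and 35.3% of the 603. Of the 907 that fell, 318 fell here too, which is 35.1% of the 907 and 53.3% of the 597. In opposite directions, 2 genes were called, the antiviral genes Oas2 and Zbp1. Both fell in Sox2 +DOX, whereas with both factors they stood above rtTA +DOX. The 531 shared calls became 92 without -DOX 1, 150 without -DOX 2, 143 without +DOX 1, 53 without rtTA +DOX replicate 1, 107 without rtTA +DOX replicate 2 and 157 without Sox2xOct4 +DOX replicate 1. Of the 126 stable genes, 94 were called the same way.

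Among the leading genes, Lipf stood higher with both factors, with a log2 change of 10.69 in Sox2xOct4 +DOX against rtTA +DOX (adjusted p = 4.1e-04). Slc37a2 changed by 7.38 there, against 7.65 in Sox2 +DOX against Sox2 -DOX, and Sox21 by 4.96, against 6.16. Cyp26b1 changed by 4.03 there (adjusted p = 0.0041), against 5.45. Ugt2b5 and Ugt2b37 changed by -6.63 and -5.84, and Reg3a by -5.02 (adjusted p = 0.0010). The size differences between the comparisons were not tested. Not called there were Gsta4 (0.98, adjusted p = 0.31), Dhrs9 (1.07, adjusted p = 0.11), Reg1 (2.12, adjusted p = 0.059), Ubd (-0.88, adjusted p = 0.44) and Cxcl9 (-0.48, adjusted p = 0.52). The mean level of the 52 interferon response genes was 0.40 and 0.92 in Sox2xOct4 +DOX, against 0.44 and -0.06 in rtTA +DOX, and -1.37 and -0.84 in Sox2 +DOX, against 0.72 and 0.89 in Sox2 -DOX. The groups overlapped in the first of these comparisons and not in the second. MHC genes had mean levels of 2.28 and 2.51 in Sox2xOct4 +DOX, against 3.22 and 2.80 in rtTA +DOX, and Ciita and H2-DMb1 fell there as well (-1.58, adjusted p = 0.023, and -2.13, adjusted p = 0.021).

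**Figure D5:**
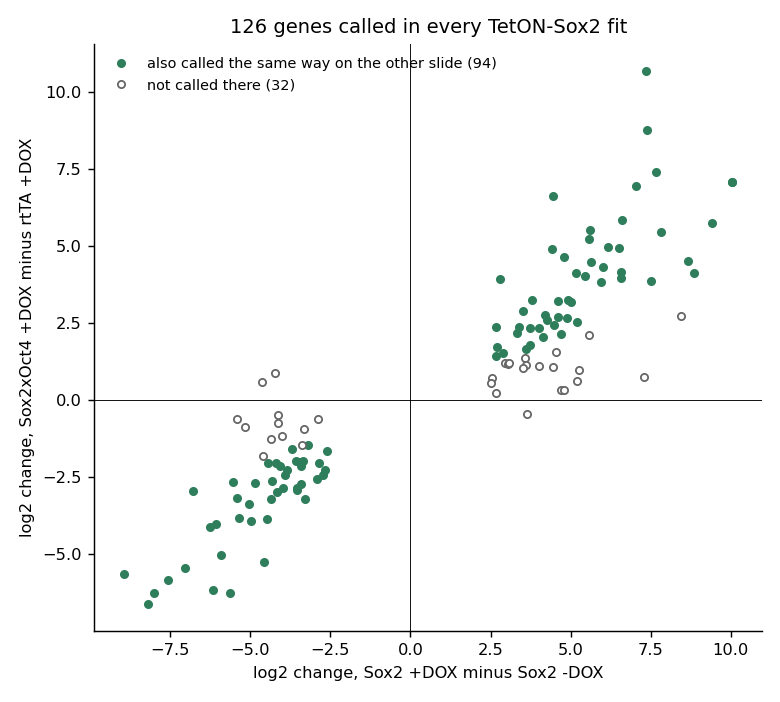
Log2 change of the 126 stable genes in Sox2 +DOX against Sox2 -DOX (horizontal) and in Sox2xOct4 +DOX against rtTA +DOX on another slide (vertical). Filled points are the 94 genes called the same way in both, open points the other 32. The stable genes were chosen on the horizontal axis.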

How the data were processed

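Total RNA of pieces of ileum was labelled with Cy3 after linear amplification and hybridised in 1 colour to Agilent arrays of mouse probes, with 5 groups of 2, per the labels' protocols. The deposited scanner files hold a background-subtracted intensity for each spot, made with Agilent Feature Extraction, per the file headers, and that was not scaled across arrays. For TetON-Sox2 these headers name version 9.5.3.1, and the submitters' processing notes name version 9.1. A deposited table gives a normalized signal for each probe of the 4 TetON-Sox2 arrays, and the steps the authors took to make it are not given in the sources used here. It was used as an alternative.

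Of 45018 spots per array, 1639 controls and 45 to 65 flagged spots were left out, and 41143 of 41174 probes were used. The log2 signal minus the array's 75th percentile (a signal of 684 to 959 on the 4 TetON-Sox2 arrays) was analysed. A probe was kept if some group had it well above background on both of its arrays, 80.7% of probes were named through RefSeq and the rest kept the name in the file, and the brightest probe stood for each gene. limma 3.58.1 in R 4.3.3 fitted the 5 group means to all 10 arrays, leaving 5 residual degrees of freedom, with Benjamini-Hochberg adjustment over 18979 genes. With 2 arrays a group, the number of arrays limits the precision, and log2 changes had a median standard error of 0.39.

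The comparison, the 48 gene lists and the rule for named genes were chosen with earlier results of these data known. Named genes were Sox2, Sox21 and Cdx2, the 15 largest rises and 15 largest falls among stable genes, up to 4 called members per direction of each list, and the 10 genes that differed most between the arrays of a group, and fewer were named than this allows. Of the largest rises, 1 is not reported here. Coordinates of probes are on build mm7 and those of promoters on GRCm38.p6. The fit was tested on simulated data. Alternatives were quantile normalization with and without normexp (offset 50), keeping dim probes, a floor, all probes, a variance trend, a slide or replicate block, the 4 arrays alone, the authors' table and each array of the groups compared left out in turn. Further steps used Python 3.11.15, pandas 2.3.3 and matplotlib 3.10.9.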

Additional observations from a re-analysis of the deposited data

How the results depend on the processing

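The count of 1482 called genes became 927 with no filter on dim probes, 623 in the fit of the 4 arrays alone and 685 with the authors' normalized table, and ran from 161 to 1717 when 1 of the 4 TetON-Sox2 arrays was left out. Leaving out either rtTA +DOX array gave 1005 and either Sox2xOct4 +DOX array 1736, and the other settings gave 1468 to 1969. The count of 531 calls shared with Sox2xOct4 +DOX against rtTA +DOX became 298 with no filter and ran from 53 to 623 when 1 array was left out. A fit with 1 array in a group assumes that it varies like the other groups. With the replicate number as a block, 1468 genes were called, 1299 of them among the 1482, and 508 were shared. Same-numbered arrays of the TetON-Sox2 groups deviated together only weakly (r = 0.0477), so the numbers were not taken to pair samples. The slide block left every call as it was, since each group lay on 1 slide. Normexp with quantile normalization moved the median of all genes to 0.01 and quantile normalization alone moved it to 0.005, against -0.104. Of 166 called named genes none changed sign with the other normalizations, the floor or the authors' table. The other fits could hardly test the sign. Blocks and the variance trend leave the log2 change as it is, and leaving out 1 array cannot reverse a gene whose groups do not overlap. Of the 166 calls, 42 were stable, a number partly preset because the naming rule takes the largest changes among stable genes. Leaving out -DOX 1 ended 116 of these calls, +DOX 1 ended 110, -DOX 2 ended 104 and +DOX 2 ended 20. Of the called genes, 465 had further probes, and 620 of those 651 probes changed in the same direction. In a fit of all probes 321 of the 651 were also called that way, and 27 genes had a probe that changed in the opposite direction.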

Other observations

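The following genes were picked from the 126 stable ones after their values were seen, and are given as values. Clu, which encodes the secreted chaperone clusterin, stood at 5.97 and 6.71 in Sox2 +DOX, against 2.76 and 1.90 in Sox2 -DOX (16.1-fold higher). The phospholipid-binding annexins Anxa1 and Anxa5 rose 47.5-fold and 17.5-fold, with Anxa1 at 6.18 and 5.28 in Sox2 +DOX against -0.22 and 0.55 in Sox2 -DOX, and Anxa5 at 6.11 and 6.40 in Sox2 +DOX against 2.09 and 2.17 in Sox2 -DOX. All 3 were also called higher in Sox2xOct4 +DOX against rtTA +DOX (log2 changes of 2.34, 5.21 and 2.05). Pax8, a transcription factor of thyroid and kidney, rose 11.5-fold (0.32 and -0.36 in Sox2 +DOX, against -3.53 and -3.56 in Sox2 -DOX). Pth1r, the parathyroid hormone receptor, rose 13.2-fold, Phlda2, an imprinted gene, 23.3-fold, and Btc, the growth factor betacellulin, 5.85-fold. Of these 4, Pth1r alone was called on the other slide (2.32, adjusted p = 0.014).

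Among the falls, Tat, the tyrosine aminotransferase, stood at -2.58 and -3.32 in Sox2 +DOX, against 1.16 and 0.96 in Sox2 -DOX (16.1-fold lower). Aspg, an asparaginase, fell 10.8-fold, and Gda, guanine deaminase, fell 7.16-fold. Slc34a3, a phosphate transporter, was at least 18.4-fold lower, Bhmt, a methyltransferase of homocysteine, at least 11.9-fold lower, and Tas1r2, a subunit of the sweet taste receptor, at least 10.6-fold lower, with signals at background on both Sox2 +DOX arrays. Aspg, Gda, Slc34a3 and Bhmt were also called lower in Sox2xOct4 +DOX against rtTA +DOX, with log2 changes of -2.73, -2.03, -3.88 and -2.44, and Tat and Tas1r2 were not (-1.19, adjusted p = 0.10, and -0.61, adjusted p = 0.31).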
